A study of Mus musculus with 9 samples.

Results

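Pulmonary surfactant is the lipid and protein film that lowers surface tension in the alveoli, and in the lung it is made and stored by the type II alveolar cell. Its lipids and its hydrophobic proteins are packed in lamellar bodies, which are secreted into the air space and later taken back by type II cells and alveolar macrophages. Type II cells also act as progenitors of the flat type I cells after injury, and Etv5 is one of the transcription factors known to maintain them. The levels of 10 of their transcripts in irradiated and control mouse lung are described here. These were the surfactant proteins Sftpa1, Sftpb, Sftpc and Sftpd, the lamellar body genes Abca3, Lamp3 and Napsa, the transporter Slc34a2, the lipid enzyme Lpcat1 and the transcription factor Etv5. They were chosen by name as genes of surfactant and of type II cells, and each was represented by its brightest probe. All 10 were found among the 19698 genes with a probe that passed the filter on dim signals.

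The series compares the left lung of mice irradiated once with the lung of control mice. All were male C57BL/6 mice, given as 10 weeks old, and 4 arrays are named control and 5 irradiated. Each array holds RNA pooled from triplicate experiments, according to the methods of the study, so that the spread between arrays is a spread between pools. Dose, lung region and time after irradiation are not in the labels, and the 5 irradiated arrays may differ in any of these. Their spread may thus hold such differences besides that between pools. The methods describe both the left lung taken whole and pieces taken apart as the irradiated focus and its surroundings. In lung tissue, fewer cells of a type and less RNA per cell cannot be told apart.

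Each array is a single-color Agilent array of 43020 gene-probe spots. Between 72.8% and 89.1% of them were well above background, with like ranges in both groups, and none was saturated. The probes of all 10 genes were well above background on all 9 arrays, and so were all 18 genes of a second list of type II cell markers, among them Lyz1, Hc and Cxcl15. All levels below are log2 intensities of the processed signal after quantile normalization, and all differences are irradiated minus control on that scale. In the positions and background of their scanned images, the arrays fell into 4 pairs of 1 control and 1 irradiated array each: control 1 with irradiated 2, control 2 with irradiated 3, control 3 with irradiated 4 and control 4 with irradiated 5. Irradiated 1 had no partner. The deviations of the 2 arrays of a pair from their group means correlated across probes at 0.28 to 0.55, so differences are also given within these pairs. Irradiated 1 stood apart in other transcripts as well. Its cardiac muscle markers averaged 4.87 below the control mean, against −0.43 to 0.41 on the other irradiated arrays, and its club cell markers averaged 2.07 below it, against −0.74 to −0.49.

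Promoter windows from RefSeq (assembly GRCm38.p6), from 250 bases before to 50 after the start of the transcript, were given for 7 of the 10 genes. They are shown for 2 surfactant protein genes and for the 2 genes with an adjusted p under 0.05 when the pairs of arrays were a block. Both strands were searched for 5 motifs, and matches are in capitals. The core of the NKX2-1 motif was searched as CTCAAG. The FOXA motif was searched as TGTTTAC. For CEBP factors the letters were TTNNGNAAT. For ETS factors such as Etv5 they were CCGGAAG. The TATA box was taken as TATAAA. Sftpa1 lies on the forward strand at chr14:41131538-41131837.
Sftpa1: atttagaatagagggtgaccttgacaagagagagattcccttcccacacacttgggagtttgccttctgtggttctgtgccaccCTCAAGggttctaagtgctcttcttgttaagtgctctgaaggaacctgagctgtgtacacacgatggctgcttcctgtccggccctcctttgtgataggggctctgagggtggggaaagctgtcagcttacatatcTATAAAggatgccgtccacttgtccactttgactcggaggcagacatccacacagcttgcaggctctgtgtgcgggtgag
Sftpb lies on the forward strand at chr6:72304360-72304659.
Sftpb: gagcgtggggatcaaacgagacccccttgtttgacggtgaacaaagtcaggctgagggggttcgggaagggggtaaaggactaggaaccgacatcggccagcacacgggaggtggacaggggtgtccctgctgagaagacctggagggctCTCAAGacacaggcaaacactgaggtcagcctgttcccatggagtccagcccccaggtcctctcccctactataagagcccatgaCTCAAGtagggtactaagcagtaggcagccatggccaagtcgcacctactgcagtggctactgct
Slc34a2 lies on the forward strand at chr5:53049103-53049402.
Slc34a2: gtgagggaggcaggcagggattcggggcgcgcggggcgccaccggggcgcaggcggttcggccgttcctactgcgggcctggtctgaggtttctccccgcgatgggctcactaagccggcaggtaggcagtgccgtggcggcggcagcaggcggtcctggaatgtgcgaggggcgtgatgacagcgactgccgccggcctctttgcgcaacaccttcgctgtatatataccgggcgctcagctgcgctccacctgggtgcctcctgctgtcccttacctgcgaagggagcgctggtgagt
The start of Etv5 farthest upstream of those given lies on the reverse strand, with its window at chr16:22439521-22439820.
Etv5: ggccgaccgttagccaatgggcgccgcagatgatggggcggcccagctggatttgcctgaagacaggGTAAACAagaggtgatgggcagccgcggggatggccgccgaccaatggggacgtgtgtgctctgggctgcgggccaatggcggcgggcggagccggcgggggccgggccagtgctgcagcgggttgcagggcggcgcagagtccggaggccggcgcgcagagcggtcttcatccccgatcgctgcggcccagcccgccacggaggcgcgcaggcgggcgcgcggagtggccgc

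The NKX2-1 core was present once in the Sftpa1 window, with its first base at −166, and at 2 places in the Sftpb window, at −100 and −15. Sftpa1 also held a TATA box at −30. The FOXA letters were found in the windows of Lamp3, at −92, and of Etv5, on the opposite strand at −183. None of the 5 motifs was found in the windows of Abca3, Slc34a2 or Lpcat1. Of 32851 promoter windows of the same length, 15.9% held the NKX2-1 core, 3.65% the FOXA letters and 13.6% the TATA box, against 2, 2 and 1 of the 7 genes. The CEBP letters (11.5% of windows) and the ETS letters (8.86%) were in none of the 7. These matches are descriptions of the letters and not sites of binding.

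No transcript of the 10 differed between the groups at an adjusted p under 0.05 (limma, adjusted over all 39303 probes tested), against 0.333% of all probes. One of them, Slc34a2, had an unadjusted p under 0.05, against 9.94% of all probes. In none of the 10 were the groups fully apart, against 4.16% of all probes. The differences ran from −0.35 to 0.27. Their median was −0.12, against 0.01 for all genes, and the median of their sizes was 0.22, against 0.16. With 75th percentile scaling, in which Sftpc can be compared within the limit given below, the median was −0.22, against −0.03 for all genes. It was −0.20 to −0.06 when 1 array was left out of the quantile normalized fit. The differences were below 0 for 7 genes and above 0 for 3, of which the Sftpc difference carries no information on its level. Their spread within groups (SD, pooled over the groups) had a median of 0.24, against 0.26 for all genes and 0.23 for genes well above background on all 9 arrays, as all 10 were. It was widest for Napsa, at 0.44. The value of Sftpc is set by the normalization, as described below.

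**Figure D1:**
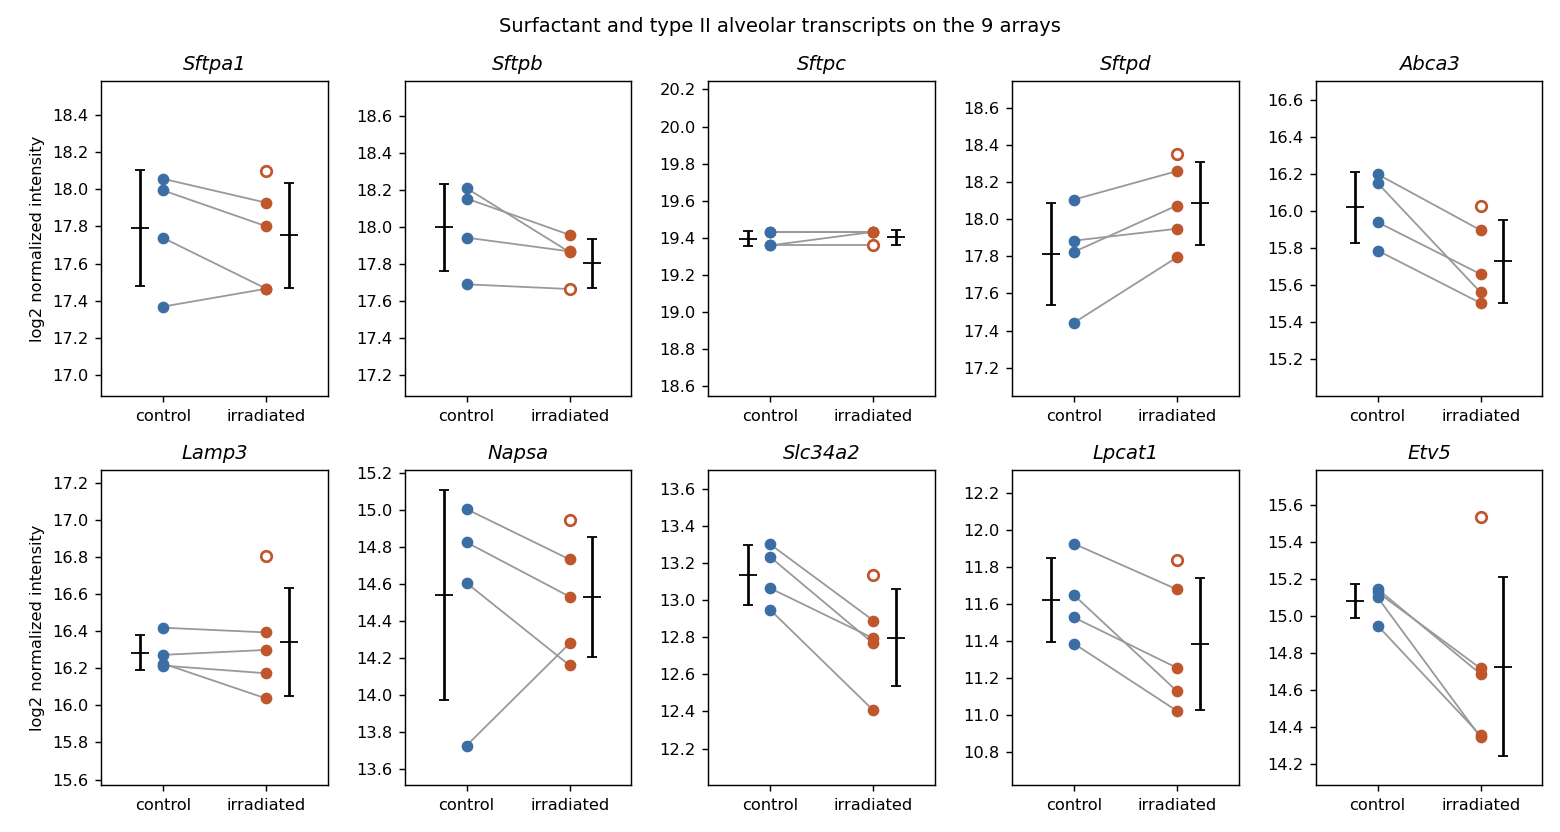
The log2 normalized intensity of each of the 10 transcripts (y axis, 1.7 log2 units in every panel) on the 4 control arrays and the 5 irradiated arrays. Points are arrays, the open circle is irradiated 1, gray lines join the arrays of a scan pair, and bars are the mean ± SD of each group. Slc34a2, Abca3, Lpcat1, Sftpb and Etv5 lie lower on the irradiated array of every pair, Sftpd lies higher, and the groups overlap in all panels.

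The surfactant proteins come in 2 kinds. Sftpb and Sftpc encode small hydrophobic proteins that spread the lipid film, and Sftpb is required for lamellar bodies to form. The level of Sftpb was 17.69, 18.21, 18.15 and 17.94 on control arrays 1 to 4 and 17.67, 17.66, 17.86, 17.96 and 17.87 on irradiated arrays 1 to 5. The 2 highest arrays were controls, while controls 1 and 4 lay among the irradiated arrays. The means were 18.00 ± 0.24 (SD, n = 4) and 17.80 ± 0.13 (SD, n = 5), a difference of −0.19 (95% interval −0.46 to 0.07, adjusted p = 0.675). Within the pairs, Sftpb was lower on each irradiated array, by 0.03, 0.34, 0.20 and 0.07.

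A second, dimmer Sftpb probe had the same sign. Its levels were 15.54, 14.30, 14.69 and 15.28 on the control arrays and 15.20, 15.20, 13.66, 14.10 and 14.75 on the irradiated arrays, a wider spread than that of the first probe. Its difference was −0.37 (95% interval −1.18 to 0.43, adjusted p = 0.832). With the pairs as a block it was −0.53 ± 0.06 (SE, adjusted p = 0.0350), against −0.16 ± 0.07 (adjusted p = 0.289) for the brighter probe. The 2 probes of the gene thus differed in the size of the within-pair difference, and this difference between probes was not tested.

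Sftpc, which is made in the lung by type II cells only, could not be compared after quantile normalization. Its spot was the brightest or the second brightest gene-probe spot on every array, and the normalization gives spots of one rank one value. It therefore had only the values 19.36 and 19.43, and its difference of 0.01 (95% interval −0.14 to 0.16, adjusted p = 0.998) says nothing about its level. When the arrays were instead scaled to a common 75th percentile, Sftpc was 19.57, 19.66, 19.58 and 19.25 on the control arrays and 19.30, 19.39, 18.99, 19.59 and 19.32 on the irradiated arrays. On this scale 3 of the 4 control arrays were among the 4 highest, the groups overlapped, and the difference was −0.20 (95% interval −0.52 to 0.13, adjusted p = 0.731). Irradiated 3, the lowest on this scale, had a log2 75th percentile of 12.16, against 11.17 to 11.50 on the other arrays. Before scaling its Sftpc signal was 872000, against 544000 to 873000 on the others. The part of this scaling in the Sftpc difference was not tested.

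Sftpa1 and Sftpd encode the collectins of surfactant, soluble lectins that bind microbes and also regulate the surfactant pool. Sftpa1 was between 17.37 and 18.06 on the controls and between 17.46 and 18.10 after irradiation. Its lowest array was control 2 and its highest irradiated 1, and the difference was −0.04 (95% interval −0.43 to 0.36, adjusted p = 0.988). Sftpd was the only one of the 10 that was higher on the irradiated array in all 4 pairs, by 0.15, 0.06, 0.35 and 0.25, as were 14.7% of all probes. It was 18.11, 17.88, 17.44 and 17.82 on the control arrays and 18.35, 18.26, 17.95, 17.80 and 18.07 on the irradiated arrays. The 2 highest arrays were irradiated 1 and 2, control 1 came next, and control 3 was the lowest. The means were 17.81 ± 0.28 (SD, n = 4) and 18.09 ± 0.23 (SD, n = 5), a difference of 0.27 (95% interval −0.07 to 0.61, adjusted p = 0.630), or 0.21 with the pairs as a block (adjusted p = 0.173). A second Sftpd probe gave 0.44 (95% interval 0.01 to 0.88, adjusted p = 0.488), and 0.39 with the pairs as a block (adjusted p = 0.0519).

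The lamellar body transcripts differed in sign over all 9 arrays, whereas all 3 were below 0 with the pairs as a block (Abca3 −0.36, Napsa −0.11 and Lamp3 −0.06), where none of the 3 passed. Abca3 encodes the transporter that loads phospholipid into the lamellar body. Its levels were 15.94, 16.15, 15.79 and 16.20 on the control arrays and 16.03, 15.66, 15.56, 15.50 and 15.90 on the irradiated arrays. Irradiated 2, 3 and 4 were the 3 lowest arrays, whereas irradiated 1 and 5 lay among the controls. The means were 16.02 ± 0.19 (SD, n = 4) and 15.73 ± 0.22 (SD, n = 5), and the difference was −0.29 (95% interval −0.58 to 0.00, adjusted p = 0.511, exact two-sided permutation p = 0.0794, the smallest possible being 0.00794). Lamp3, a membrane protein of the lamellar body, was within 16.21 to 16.42 on the control arrays and within 16.04 to 16.80 on the irradiated arrays. Irradiated 1 was its highest array and irradiated 4 its lowest, so that the SD was 0.09 in the control and 0.29 in the irradiated group, with a difference of 0.06 (95% interval −0.26 to 0.37, adjusted p = 0.961). Napsa encodes an aspartic protease that takes part in the processing of pro-SP-B. It was between 13.73 and 15.00 on the controls and between 14.16 and 14.95 after irradiation. Both its lowest and its highest array were controls, and the difference was −0.01 (95% interval −0.58 to 0.56, adjusted p = 1.00).

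Slc34a2 had the lowest p of the 10. It encodes the sodium-dependent phosphate transporter of the type II cell, which takes up phosphate released from surfactant phospholipid. Its levels were 13.23, 12.95, 13.06 and 13.30 on the control arrays and 13.13, 12.77, 12.41, 12.79 and 12.89 on the irradiated arrays. Irradiated 2 to 5 were all below the lowest control array, and irradiated 1 lay among the controls. The means were 13.14 ± 0.16 (SD, n = 4) and 12.80 ± 0.26 (SD, n = 5), a difference of −0.34 (95% interval −0.65 to −0.03), or 1.26-fold lower. The unadjusted p was 0.0364 and the adjusted p 0.443, with an exact two-sided permutation p of 0.0714.

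Lpcat1 encodes the acyltransferase that makes dipalmitoylphosphatidylcholine, the main surface-active lipid. It was 11.92, 11.65, 11.39 and 11.53 on the control arrays and 11.84, 11.68, 11.13, 11.02 and 11.25 on the irradiated arrays. Irradiated 3, 4 and 5 were the lowest, while irradiated 1 and 2 were higher than 3 of the 4 controls. The difference was −0.24 (95% interval −0.65 to 0.18, adjusted p = 0.774).

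Etv5, an ETS-family transcription factor downstream of FGF signaling, had the widest spread among the irradiated arrays of the 10 transcripts. Its levels were 15.13, 15.15, 15.10 and 14.95 on the control arrays and 15.53, 14.72, 14.69, 14.35 and 14.36 on the irradiated arrays. Irradiated 2 to 5 lay below every control array and irradiated 1 above every control array. The means were 15.08 ± 0.09 (SD, n = 4) and 14.73 ± 0.48 (SD, n = 5), so that the difference of −0.35 (95% interval −0.83 to 0.13, adjusted p = 0.673) was smaller than the spread of the irradiated arrays. Without irradiated 1 it was −0.56 (adjusted p = 0.0515), and none of the 10 passed in that fit, against 1.24% of all probes.

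Within the pairs of arrays, 5 of the 10 transcripts were lower on the irradiated array every time, namely Sftpb, Abca3, Slc34a2, Lpcat1 and Etv5, as were 16.8% of all probes. Slc34a2 was lower by 0.47, 0.54, 0.27 and 0.41. Etv5 was lower by 0.41, 0.46, 0.76 and 0.59. Abca3 was lower by 0.28, 0.59, 0.28 and 0.30, and Lpcat1 by 0.25, 0.52, 0.36 and 0.27. No pair went the other way for these genes. With the pairs as a block in limma, which leaves irradiated 1 without weight in the comparison, 2 of the 10 passed an adjusted p of 0.05, against 2.81% of all probes. These were Slc34a2, at −0.42 ± 0.06 (SE, 95% interval −0.58 to −0.27, adjusted p = 0.0433), and Etv5, at −0.55 ± 0.07 (SE, 95% interval −0.74 to −0.37, adjusted p = 0.0370). Abca3, at −0.36 (adjusted p = 0.0691), and Lpcat1, at −0.35 (adjusted p = 0.0664), did not. At an unadjusted p under 0.05, 5 of the 10 passed with the block, against 20.9% of all probes. When the pairs were a random block, the 2 that passed were Slc34a2 (adjusted p = 0.0266) and Abca3 (adjusted p = 0.0433), both lower, against 7.38% of all probes called and 3.28% called lower, and Etv5 did not (adjusted p = 0.0757). When any 1 of the 4 pairs was left out, none of the 10 passed. Of all probes, 236, 277, 0 and 1 passed with pair 1, 2, 3 or 4 left out. The adjusted p was 0.0628 to 0.183 for Slc34a2 and 0.0598 to 0.185 for Etv5. Their differences were −0.47 to −0.38 and −0.60 to −0.48.

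**Figure D2:**
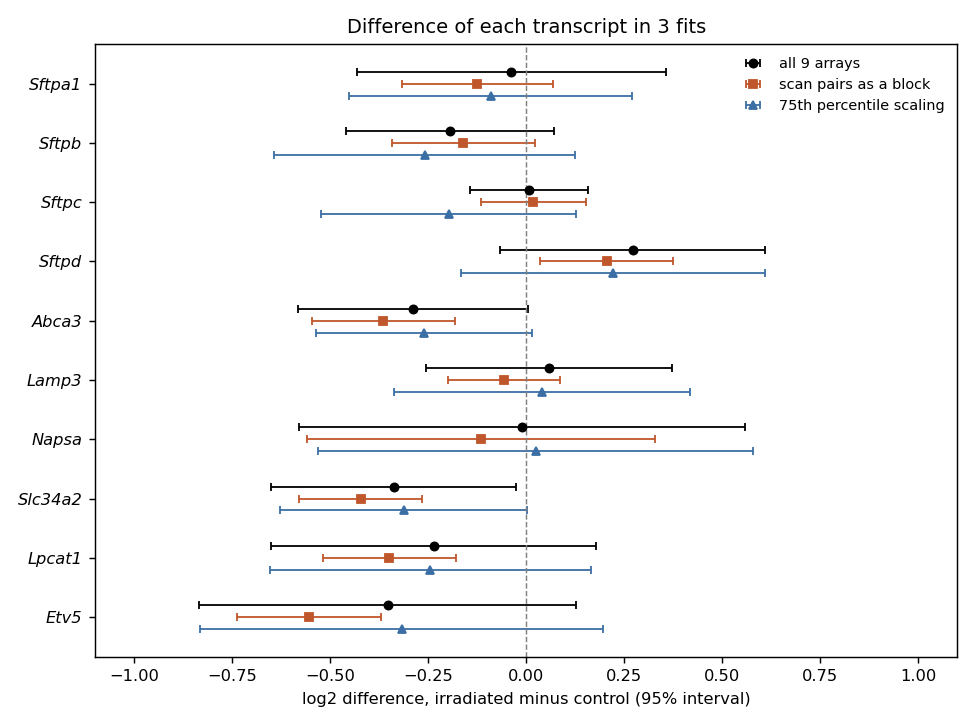
The log2 difference of each of the 10 transcripts, irradiated minus control (x axis), with its 95% interval, over all 9 arrays (black circles), with the scan pairs as a block (orange squares) and over all 9 arrays after 75th percentile scaling (blue triangles). With the block, the intervals of Abca3, Slc34a2, Lpcat1 and Etv5 lie below 0 and that of Sftpd above 0, while for Sftpc only the 75th percentile scaling can show a difference.

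The arrays differed in the level of the 10 transcripts as a group. Set against the control mean, their mean was 0.13, −0.10, −0.08 and 0.05 on the control arrays and 0.21, −0.04, −0.27, −0.32 and −0.14 on the irradiated arrays. Irradiated 1 was the highest of the 9 arrays and irradiated 4 the lowest. Irradiated 1 held the highest level of 4 of the 10 transcripts, namely Sftpa1, Sftpd, Lamp3 and Etv5, and irradiated 4 the lowest level of 4, namely Abca3, Lamp3, Lpcat1 and Etv5. The median of all genes on these arrays, relative to the same control mean, was between −0.03 and 0.06. Irradiated 1 was not high in all of the 10, since Sftpb was 0.33 below the control mean there and Slc34a2 and Abca3 lay at that mean. The part of its low muscle and club cell markers in these levels was not tested.

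The genes whose profile was most like the mean profile of the 10 were Pcyt1a, Atxn7l3b, Chst7, Klra9 and Cth, by the root mean square difference over the 9 arrays. It was 0.065 for Pcyt1a and 0.075 for Cth, among 11075 candidate genes with a median of 0.315. Pcyt1a encodes the enzyme that sets the rate of phosphatidylcholine synthesis. It was 13.57, 13.51, 13.45 and 13.58 on the control arrays and 13.74, 13.44, 13.11, 13.16 and 13.44 on the irradiated arrays, with a difference of −0.15 (adjusted p = 0.795), −0.24 with the pairs as a block and −0.24 to −0.08 when 1 array was left out. It was highest on irradiated 1 and lowest on irradiated 3 and 4, and it is named because its profile is near that mean.

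Around these 10 genes, 178 further genes of the surfactant system and of related lung cells and defense proteins were placed in 7 lists. Of these, 3 rose after irradiation at an adjusted p under 0.05, against 0.191% of all probes called higher, and none was called lower, against 0.142%. In the fit with pairs as a block, 15 were called higher (1.55% of all probes) and 8 lower (1.26%). These calls depended on which pairs were in the fit. With pair 1, 2, 3 or 4 left out, 8, 9, 0 and 0 list genes were called. Of all probes, 236, 277, 0 and 1 were. The median difference was −0.01 for 18 other type II cell markers, −0.03 for 33 genes of surfactant lipid synthesis, 0.05 for 35 genes of lamellar body traffic and secretion and −0.02 for 39 transcription factors and FGF and ERBB signaling genes. It was 0.30 for 17 measured genes of collectins and other soluble lung defense proteins, 0.29 for 22 genes of surfactant uptake and clearance and 0.40 for 18 genes of the transitional state between type II and type I cells, against 0.01 for all genes.

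**Figure D3:**
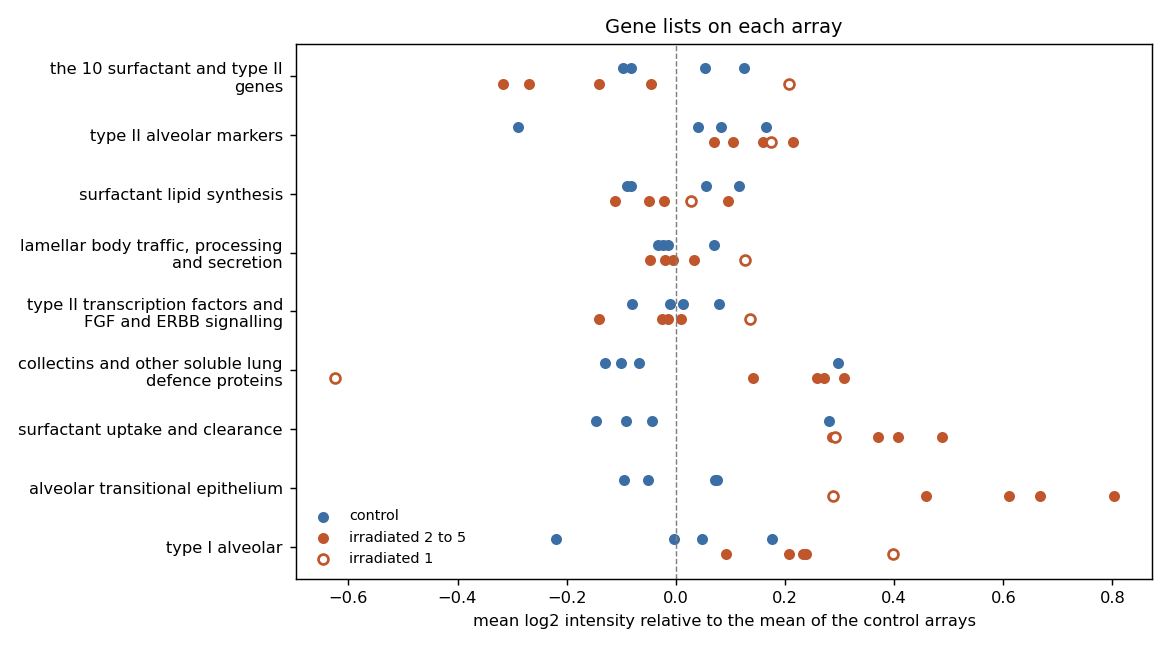
The mean log2 intensity of the 10 transcripts, of the 7 gene lists and of type I cell markers on each array, minus the mean over the 4 controls (x axis). Blue points are control arrays, orange points irradiated 2 to 5 and open circles irradiated 1. The 5 irradiated arrays lie at 0.29 to 0.80 for the transitional list, above all 4 controls at −0.09 to 0.07, and irradiated 1 lies at −0.63 for the soluble defense proteins.

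None of the 18 other type II cell markers passed the test over all arrays, and 8 of their differences were above 0 and 10 below. The widest was that of Dlk1, a non-canonical Notch ligand. Its 4 control levels spanned 5.55 to 6.69, and it was 5.82, 7.66, 10.63, 10.68 and 11.52 on the irradiated arrays. Irradiated 1 lay among the controls and the other irradiated arrays were all higher, which gave a difference of 3.24 (adjusted p = 0.292), or 4.06 without irradiated 1 (adjusted p = 0.0355). Acoxl, an acyl-CoA oxidase-like gene, differed by −1.02 (adjusted p = 0.238) and Il33, the gene of an alarmin cytokine made by type II cells, by 0.66 (adjusted p = 0.292). Both passed with the pairs as a block, at −1.24 (adjusted p = 0.0347) and 0.81 (adjusted p = 0.0255). Lgi3, chosen after its values were seen, was the third type II marker that passed in that fit, at −0.77 (adjusted p = 0.0341).

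The genes of surfactant lipid synthesis gave 16 differences above 0 and 17 below, and none passed over all arrays. Pcyt1a is given above. Fasn, the fatty acid synthase, differed by 0.36 (adjusted p = 0.582) and Scd1, the stearoyl-CoA desaturase, by 0.71 (adjusted p = 0.259), and both were higher on the irradiated array of all 4 pairs. Over the 33 genes of the list, 5 were higher in all 4 pairs (14.7% of all probes) and 8 were lower in all 4 (16.8%). Lpcat2, the inducible relative of Lpcat1, differed by 0.54 (adjusted p = 0.469), or by 0.31 with 75th percentile scaling and 0.26 with normexp background correction. Pla2g1b, a secreted phospholipase, differed by −0.68 (adjusted p = 0.479) and was the 1 gene of the list that passed with the pairs as a block, at −0.91 (adjusted p = 0.0377).

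Of the lamellar body list, 20 differences were above 0 and 15 below, and none passed over all arrays. P2ry2, the ATP receptor that triggers surfactant secretion, differed by 0.54 (adjusted p = 0.258). Snap23, a SNARE protein of exocytosis, differed by −0.45 (adjusted p = 0.606), by −0.15 when its probes were averaged and by −0.62 to −0.29 when 1 array was left out. Cd63, a membrane protein of lysosome-related organelles, differed by 0.37 (adjusted p = 0.323). Adgrf5, the receptor that restrains the surfactant pool, was chosen after its values were seen as the 1 gene that passed with the pairs as a block, at −0.35 (adjusted p = 0.0377).

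Among the transcription factors and signaling genes, 1 of 39 passed over all arrays. Nrg1, a ligand of the ERBB3 receptor that stimulates surfactant synthesis, rose by 0.87 (95% interval 0.57 to 1.17, adjusted p = 0.0400). It was 10.81, 10.64, 10.94 and 11.31 on the control arrays and 11.84, 11.88, 11.82, 11.57 and 11.88 on the irradiated arrays, with no overlap, but the call was lost in 7 of the 9 fits that left out 1 array (adjusted p up to 0.116) and with the authors' normalized table (0.53, adjusted p = 0.388). Its receptor gene Erbb3 differed by −0.49 (adjusted p = 0.465), or by −0.18 with normexp background correction. Nkx2-1, the master regulator of the surfactant genes, differed by −0.17 (95% interval −0.52 to 0.18, adjusted p = 0.825), or by −0.31 without control 1 and −0.07 without control 2 or irradiated 2. Foxa2 differed by −0.25 (adjusted p = 0.645), Cebpa by −0.27 (adjusted p = 0.777, −0.42 to −0.17 when 1 array was left out) and Fgfr2, the receptor of the alveolar FGF signal, by −0.33 (adjusted p = 0.343). All of these except Nrg1 were lower on the irradiated array of every pair. Over the whole list, 16 of the 39 genes were lower in all 4 pairs (16.8% of all probes) and 10 were higher in all 4 (14.7%).

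The block fit called 3 genes of this list higher and 4 lower. Nrg1 and Cebpa (−0.42, adjusted p = 0.0469) were among them. The other 5 were chosen after their values were seen. Etv4, the close relative of Etv5, was 1.07 higher (adjusted p = 0.0251) in the pairs in which Etv5 was 0.55 lower. Etv4 lay at 8.42 to 8.82 on the control arrays and at 9.17 to 9.97 on the irradiated arrays, irradiated 1 included, although its difference of 0.96 did not pass over all arrays (adjusted p = 0.0651). Spry4, a feedback inhibitor of FGF signaling, was 0.89 higher (adjusted p = 0.0377). Foxa1 (−0.60, adjusted p = 0.0252), Tfcp2l1 (−1.03, adjusted p = 0.0255) and Elf5 (−1.25, adjusted p = 0.0248), which are transcription factors of lung epithelium, were lower.

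**Figure D4:**
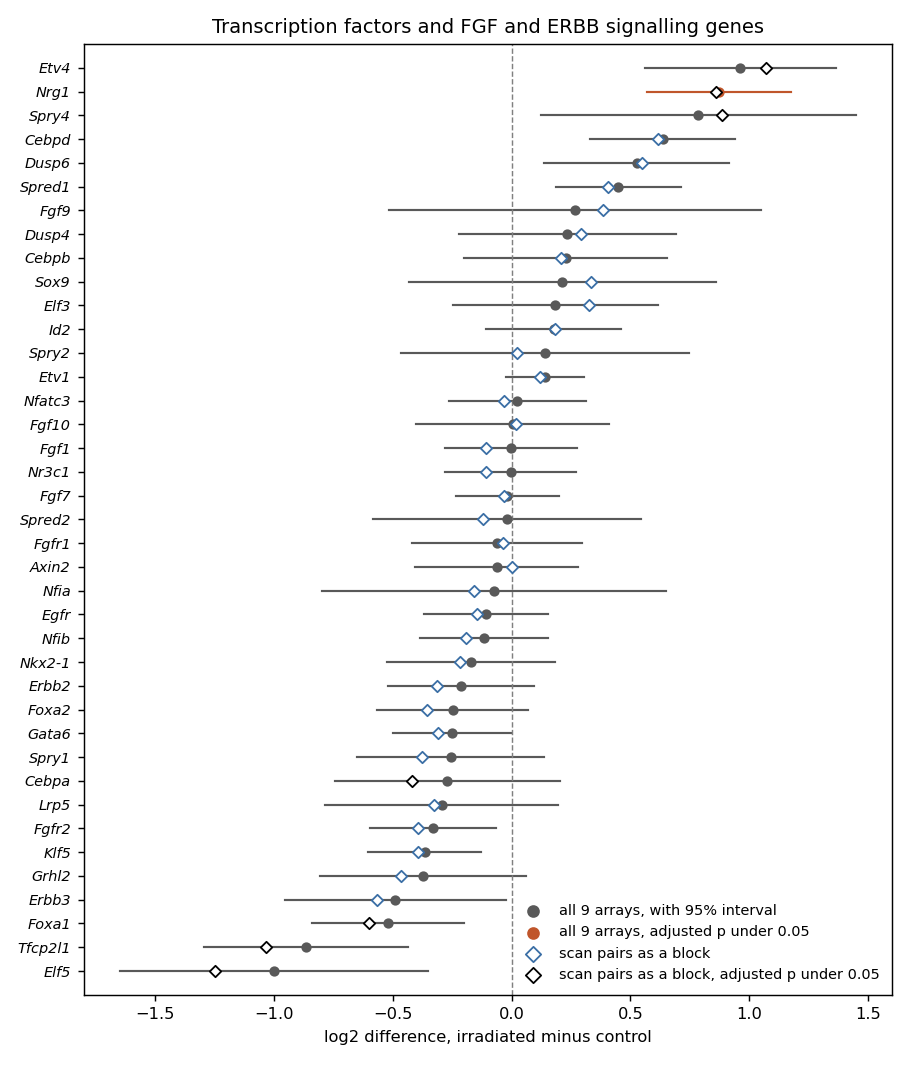
The log2 difference, irradiated minus control (x axis), of 39 transcription factors and FGF and ERBB signaling genes, sorted by size. Circles with 95% intervals are the fit over all 9 arrays, orange where the adjusted p was under 0.05 (Nrg1 at 0.87), and open diamonds are the fit with the scan pairs as a block, black where the adjusted p was under 0.05. Etv4 is at the top (0.96), and Tfcp2l1 (−0.87) and Elf5 are at the bottom.

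Of the soluble defense proteins, which include the collectin relatives of Sftpa1 and Sftpd, 17 of 18 were measured and none passed over all arrays. Lcn2, which binds bacterial siderophores, was 13.83 to 15.56 on the controls and 15.41 to 17.11 after irradiation, a difference of 1.74 (adjusted p = 0.112), or 1.99 with the pairs as a block (adjusted p = 0.0252). Bpifa1 and Reg3g, antimicrobial proteins of the airway epithelium, differed by −2.69 (adjusted p = 0.408) and −1.34 (adjusted p = 0.721). Both were lowest on irradiated 1, where Bpifa1, which is also in the club cell list, was 10.09 against 14.52 to 15.58 on the other irradiated arrays and Reg3g 10.21 against 14.33 to 15.19. Without this array the differences were −1.67 (adjusted p = 0.171) and −0.42 (adjusted p = 0.759). Chil1, chosen after its values were seen, was the other gene that passed with the pairs as a block, at 0.52 (adjusted p = 0.0291). Club cell markers lay lower on the irradiated arrays, with 9 of 9 differences below 0 and a median of −0.76, and their summed intensity was 1877200 to 2029800 on the controls and 1413200 to 1581100 after irradiation. None of the 9 passed over all arrays. Cyp2f2, chosen after its values were seen, passed with the pairs as a block, at −0.64 (adjusted p = 0.0479), and without irradiated 1 (adjusted p = 0.0306). The part of club cells in the values of the soluble defense list was not tested.

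Besides type II cells, alveolar macrophages take part in the uptake and clearance of surfactant. In these macrophages it depends on GM-CSF, the ligand of the receptor subunits Csf2ra and Csf2rb. Of the 22 genes, 18 differences were above 0 and none passed over all arrays. Csf2rb differed by 0.49 (adjusted p = 0.343) and was higher on the irradiated array of all 4 pairs. Over the 22 genes, 11 were higher in all 4 pairs (14.7% of all probes) and 2 were lower in all 4 (16.8%). Gpnmb, a membrane protein of lipid-laden macrophages, was 9.51 to 10.24 on the control arrays and 10.82, 11.26, 11.76, 14.38 and 13.51 on the irradiated arrays. The groups did not overlap and irradiated 4 and 5 were far above the rest, a difference of 2.39 (adjusted p = 0.209). Msr1, a scavenger receptor, differed by 1.38 (adjusted p = 0.0839) and Bhlhe40, a transcription factor of alveolar macrophages, by 0.78 (adjusted p = 0.270). The block fit called 4 genes higher. They were Msr1 (1.56, adjusted p = 0.0412), Bhlhe40 (0.85, adjusted p = 0.0472), Csf2rb2 (0.71, adjusted p = 0.0491) and Lrp1 (0.35, adjusted p = 0.0491), the last 2 chosen after their values were seen. Csf2rb2 and Csf2rb are near-identical genes, so their probes may share signal. A list of 12 alveolar macrophage markers had 4 differences above 0 and 8 below, a median of −0.20, and a summed intensity of 215660 to 479890 on the controls and 287300 to 468890 after irradiation, and its part in these values was not tested. Of these markers, chosen after their values were seen, Krt79 was called lower with the pairs as a block (−1.34, adjusted p = 0.0178) and Plet1 higher (0.50, adjusted p = 0.0392).

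The transitional list, which holds keratins and other genes of type II cells on the way to type I cells, had 15 of 18 differences above 0. Its keratins Krt8, Krt18, Krt19 and Krt7, named after their values were seen, differed by 0.39, 0.14, −0.01 and 0.49. None of these keratins passed over all arrays or with the pairs as a block. Over all arrays, 2 genes of the list rose. Areg, an EGF-family growth factor, was 9.07, 9.18, 8.41 and 8.92 on the control arrays and 10.83, 11.44, 12.04, 11.64 and 11.69 on the irradiated arrays. All irradiated arrays were above all controls, and the difference was 2.63 (95% interval 2.10 to 3.16, adjusted p = 0.00668). Lgals3, the gene of galectin-3, was 15.42 to 15.81 on the controls and 16.08 to 16.63 after irradiation, also without overlap, and rose by 0.74 (95% interval 0.46 to 1.02, adjusted p = 0.0457). The Areg call held in all 9 fits that left out 1 array (adjusted p up to 0.0450) but was lost in 2 of the 4 that left out 1 pair from the block fit (adjusted p up to 0.180), and the Lgals3 call was lost in 8 of the 9 (adjusted p up to 0.152) and with 75th percentile scaling (adjusted p = 0.0659). The block fit called 5 genes higher, Areg and Lgals3 among them. The others, Hbegf (0.85, adjusted p = 0.0421), Itgb6 (0.85, adjusted p = 0.0388) and Ndrg1 (0.35, adjusted p = 0.0467), were chosen after their values were seen. Areg, Lgals3 and several other genes of this list are also made by immune cells and fibroblasts. Of the leukocyte markers, 9 of 10 differences were below 0 with a median of −0.27, but none passed and the array means overlapped (−0.21 to 0.35 on the controls and −0.54 to −0.06 after irradiation, relative to the control mean). The fibroblast markers had a median of 0.22 with Fn1 called higher (0.90, adjusted p = 0.0326), and the part of these cells was not tested.

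Markers of the neighboring cells were measured to set beside the 10 transcripts. Of the type I cell markers, 13 of 15 differences were above 0, with a median of 0.20. Spock2 was the 1 that passed over all arrays (0.81, adjusted p = 0.0440), and it missed the threshold with the pairs as a block (adjusted p = 0.0556), with 75th percentile scaling (adjusted p = 0.0509) and in 7 of the 9 fits that left out 1 array (adjusted p up to 0.137). Pdpn, chosen after its values were seen, was the 1 type I marker that passed with the pairs as a block, at 0.55 (adjusted p = 0.0279), against 0.52 over all arrays (adjusted p = 0.0631). The summed intensity of the type I markers was 458170 to 569880 on the controls and 585010 to 699010 after irradiation. These sums did not overlap, but the mean log2 level of the same markers did, at −0.22 to 0.18 on the controls and 0.09 to 0.40 after irradiation relative to the control mean. Genes of epithelium in general, such as Epcam and Cdh1, had a median of 0.12, ciliated cell markers −0.22 and endothelial markers −0.08. None of these passed over all arrays, and 4 were called lower with the pairs as a block, all chosen after their values were seen: Cldn3 (−0.47, adjusted p = 0.0324), Tekt2 (−0.69, adjusted p = 0.0350), Hydin (−0.48, adjusted p = 0.0452) and Tie1 (−0.31, adjusted p = 0.0469). Markers of heart muscle, skeletal muscle and fat had medians of −1.13, −1.69 and −2.29, and none of them passed the test. The heart muscle median was −0.20 with the pairs as a block, in which irradiated 1 has no weight. The mean of the skeletal muscle markers, relative to the control mean, was 4.02 on control 3 against −1.67 to −1.09 on the other controls and −2.45 to −0.96 after irradiation. The summed intensity of the fat markers was 45544 to 124850 on the controls and 6966 to 80004 after irradiation. The part of these tissues in the levels of the 10 transcripts was not tested.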

How the data were processed

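RNA from mouse lung was labeled with 1 dye and hybridized to Agilent arrays. For each array, the authors deposited Feature Extraction output as intensity values without normalization between arrays, and a table of normalized intensity values, which is used only as an alternative. Spots were numbered from their image position, which gave a rank correlation of 1 with that table on all arrays. Control and outlier spots were dropped. A probe was kept (39303 of 39429) where its signal exceeded 1.4 times local background, the factor in the methods, on at least 4 of 9 arrays. The processed signal was log2 transformed, then quantile normalized, and spots of a probe were averaged. Accessions matched RefSeq symbols (GRCm38.p6, names and promoters) for 26055 probes. Groups were compared with limma 3.58.1 in R 4.3.3 (intensity trend, Benjamini-Hochberg adjustment over all probes kept), without covariates, and by an exact permutation test over 126 splits. The code was tested on simulated data. Arrays are pools, so p-values measure the spread between pools, which among the irradiated arrays may also hold differences of dose, region or time. The number of arrays limits the precision. Scan pairs were arrays that were each other's nearest in image tilt, offset and background.

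The 10 genes and the gene lists were chosen with earlier results of these data known. Genes were named by rule: the 10, of each list those past the threshold or else the 3 largest differences among probes well above background on all arrays, and 9 set genes. Alternatives were normexp correction (offset 50), 75th percentile scaling, the background filter on all 9 arrays or none, the authors' table, leaving out arrays, the replicate block, scan pairs, no intensity trend, array weights, an adjusted p under 0.01 and the mean of a gene's probes. Probe sequences and the proteins were not used here.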

Additional observations from a re-analysis of the deposited data

Results flagged for a closer look

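No value of the 10 transcripts stood apart from its group by Dixon's test. Among 56 groups of 4 control or 5 irradiated arrays tested, over the 10 transcripts and the gene lists, 5 had an array apart (8.93%), against about 2.8 by chance. The mean of the soluble defense proteins, relative to the control mean, was 0.2979 on control 1, against −0.1291 to −0.0677 on the other control arrays, and −0.6254 on irradiated 1, against 0.1420 to 0.3083 on the other irradiated arrays. The mean of the club cell markers was −2.0747 on irradiated 1, against −0.7448 to −0.4858. The cardiac muscle markers averaged −4.8748 on irradiated 1, against −0.4307 to 0.4125. The skeletal muscle markers averaged 4.0193 on control 3, against −1.6672 to −1.0912 on the other control arrays.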

How the results depend on the processing

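The 10 transcripts kept their sign for 6 of 10 over all 26 alternatives that give a difference: Sftpb, Abca3, Slc34a2, Lpcat1 and Etv5 were lower and Sftpd was higher in each. Their sizes moved more: with 1 array left out, the range was −0.29 to −0.12 for Sftpb, −0.35 to −0.14 for Lpcat1, −0.56 to −0.26 for Etv5 and 0.14 to 0.37 for Sftpd, and Lpcat1 was −0.15 with the authors' table. Over all 26 alternatives, Sftpd ranged from 0.081 to 0.37, Lpcat1 from −0.43 to −0.14 and Abca3 from −0.44 to −0.21. Sftpd was 0.16 with the pairs as a block and 75th percentile scaling. The median difference of the 10 transcripts, −0.12, ranged from −0.25 to −0.058. The other 4 have differences near 0 that turned. The Sftpc log2 difference was −0.20 with 75th percentile scaling and −0.19 with that scaling and the pairs as a block, and −0.0051 to 0.021 when 1 array was left out. The Napsa log2 difference was 0.024 with 75th percentile scaling and −0.28 to 0.14 when 1 array was left out. The Sftpa1 log2 difference was −0.18 to 0.053 when 1 array was left out. The Lamp3 log2 difference was −0.057 with the pairs as a block, −0.088 with that block and 75th percentile scaling, −0.011 with a random block, −0.076 without control 3 and irradiated 1, −0.058 to 0.13 when 1 array was left out and −0.069, −0.083, −0.014 and −0.065 when pair 1, 2, 3 or 4 was.

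The number of probes called, 131, moved most. It was 1105 with the pairs as a block, 1482 with that block and 75th percentile scaling, 2899 with a random block, 197 with the background filter on all arrays, 44 with the authors' table and also without an intensity trend, 5 at a threshold of 0.01, 5 (without control 3) to 485 (without irradiated 1) when 1 array was left out and 236, 277, 0 and 1 when pair 1, 2, 3 or 4 was left out of the block fit. Of the 10 transcripts, 2 were called in the first 3 of these settings and 0 in all others. Pathway list genes called, 3 in all, were 23, 34 and 44 in those 3 settings, 1 with the authors' table, without the trend and at the threshold of 0.01, 5 without control 3 and irradiated 1 and with all probes of a gene averaged, 1 to 10 when 1 array was left out and 8, 9, 0 and 0 when pair 1, 2, 3 or 4 was. Of the single list genes called, Lgals3, Nrg1 and Spock2 also lost their calls with the authors' table (adjusted p = 0.106, 0.388 and 0.0708), without the trend (0.0999, 0.0745 and 0.0893) and without control 3 and irradiated 1 (0.0737, 0.0907 and 0.0649). Among named genes of the lists, the size moved over 1.5 times with the authors' table, to 0.53 for Nrg1, −0.24 for Erbb3, 0.19 for Fasn, 0.26 for Lpcat2, 0.31 for P2ry2, 0.24 for Cd63, 0.88 for Msr1, 0.50 for Bhlhe40, −0.57 for Tfcp2l1, −0.63 for Elf5 and 0.16 for Lrp1. With all probes of a gene averaged it moved to −0.15 for Snap23 and 1.68 for Etv4 (adjusted p = 0.0245). The cause of these moves was not tested.

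Arrays with the same replicate number did not deviate together (correlations of −0.21 to 0.12), so the numbers do not pair the arrays. With the replicate block, 1 probe and 0 of the pathway list genes were called. A slide block was not run, since the slide is not given in the sources used here. The 95% intervals of the 10 differences, which are not adjusted for the number of probes, reached −0.83 and 0.61. With 4 arrays against 5, larger differences could also go uncalled, as did 1.38 for Msr1 and 1.74 for Lcn2.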
